A study of Mus musculus with 12 samples.

Results

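Solute carriers are the membrane proteins that move nutrients, ions and metabolites across the plasma membrane and the membranes of mitochondria, endoplasmic reticulum (ER) and Golgi. The members described here were the rows of the deposited table with a solute carrier symbol (Slc or Slco followed by a family and member number) and a mean level of at least 3.58 reads per 1e6 reads (CPM) over all 12 libraries, with Slc2a1, Slc2a3, Slc2a8 and Slc12a2 left out by name. Of 43472 rows, 378 had such a symbol, 207 of them fell below that mean (2 were at 0 in every library), and 167 were members. Apart from the genes left out by name, members were chosen by this mean level, which is given as a description. Just inside the limit were Slc26a5 at 3.63, Slc5a4b at 3.81 and Slc45a3 at 3.92 CPM, and just outside it Slc25a23 at 3.48, Slc3a1 at 3.31 and Slc4a3 at 3.23 CPM.

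The libraries came from whole CD1 mouse embryos that had received, as zygotes, a GFP mRNA together with an siRNA, aimed either at Tdgf1 or, as a negative control, at no named gene. Cripto, the product of Tdgf1, is a co-receptor for Nodal. Embryos were taken as morulae, early blastocysts and late blastocysts, with 2 libraries of each siRNA at each stage, so 6 groups and 4 libraries a stage. Every group carries the GFP mRNA and an siRNA, and no uninjected embryos were analysed here. Nothing in the sources says whether the libraries of a group came from separate pools of embryos, so the p-values measure the spread between these libraries, which may be technical. Same-numbered libraries of the 2 arms varied together in morulae and early blastocysts (correlations of 0.458 and 0.593 over genes). Stage comparisons counted the 4 libraries of a stage as separate, so their p-values may be too small.

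Embryos before implantation live on their stores and on what they take up from the oviduct and uterine fluid. Early cleavage stages use pyruvate and lactate, the blastocyst also takes up glucose and amino acids, and the blastocoel fills because the trophectoderm, the outer epithelium, pumps sodium and lets water follow. Carriers are sorted by substrate: families of Slc25 sit mostly in the inner mitochondrial membrane, Slc35 in Golgi and ER, Slc30 and Slc39 carry zinc and other metals, and Slc1, Slc3, Slc7 and Slc38 carry amino acids.

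Libraries held 10524640 to 13770264 reads, at which a count of 3 reads equals 0.218 to 0.285 CPM; amplified reads are not independent molecules, so this limit covers counting error only. Tdgf1 itself read 15.5 and 10.98 CPM with Tdgf1 siRNA and 29.4 and 23.4 CPM with control siRNA in morulae, 9.27 and 15.2 CPM with Tdgf1 siRNA and 21.7 and 13.1 CPM with control siRNA in early blastocysts and 49.5 and 70.8 CPM with Tdgf1 siRNA and 97.3 and 84.6 CPM with control siRNA in late blastocysts. The early blastocyst library labelled Tdgf1 siRNA replicate 2 was above the control of its own number, and the arms overlapped at that stage. The early blastocyst libraries of number 1 and number 2 stood apart in both arms: 8 trophectoderm markers summed to 3433 CPM with Tdgf1 siRNA and 3708 CPM with control siRNA in number 1, and to 1767 CPM with Tdgf1 siRNA and 1662 CPM with control siRNA in number 2. Late blastocyst libraries held 5343 to 7631 CPM of these markers and morula libraries 542 to 777 CPM, so the list moved with stage beside every stage difference below. Of the 8, 7 were higher and 1 lower in late blastocysts than in morulae. Of 6 epiblast markers, 4 were lower and 1 higher in late blastocysts than in morulae, and they summed to 245 to 313 CPM in late blastocysts and 691 to 994 CPM in morulae. Of 5 primitive endoderm markers tested, 4 were higher and 1 lower, and their list of 7 summed to 974 to 1116 CPM in late blastocysts and 748 to 779 CPM in morulae. The part of these lists in the stage differences was not tested. In whole embryos, fewer cells of a type and less RNA per cell cannot be told apart. The 9 cumulus and granulosa markers summed to 4.03 to 7.16 CPM in late blastocysts and 13.5 to 23.3 CPM in morulae, and nearly all of that was Amhr2, which was lower in late blastocysts than in morulae (-1.27). Each of the other 8, Foxl2, Fshr and Has2 among them, was at or below 0.413 CPM in every library.

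Together the members took 7397 and 7601 CPM with Tdgf1 siRNA and 7526 and 7794 CPM with control siRNA in morulae, 7902 and 7819 CPM with Tdgf1 siRNA and 8160 and 7849 CPM with control siRNA in early blastocysts, and 10047 and 10341 CPM with Tdgf1 siRNA and 11225 and 10176 CPM with control siRNA in late blastocysts. All 4 late blastocyst libraries were above all others, and the late blastocyst mean was 1.04% of the library. The median member averaged 22.0 CPM over the libraries, against 31.5 CPM for all 10751 genes with the same minimum mean. Reads were unevenly shared: 34 mitochondrial carriers held 38.4% of the members' reads, 18 amino acid carriers 12.4%, 20 nucleotide sugar and related Golgi and ER carriers 8.36%, 19 inorganic ion carriers 8.08% and 23 metal carriers 7.65%. Per kilobase of exon, the scale on which genes can be compared, Slc25a5 was highest at 571 CPM per kb, followed by Slc25a4 at 169, Slc25a3 at 111, Slc35b1 at 62.4, Slc5a6 at 57.5 and Slc6a8 at 56.6 CPM per kb among the members named by rule; Slc25a39, at 128 CPM per kb, lay between Slc25a4 and Slc25a3 and was named after its value was seen. Slc25a5, the main ADP/ATP exchanger of dividing cells, has processed pseudogene copies, and the sources used here do not say how reads shared with them were counted.

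**Figure D1:**
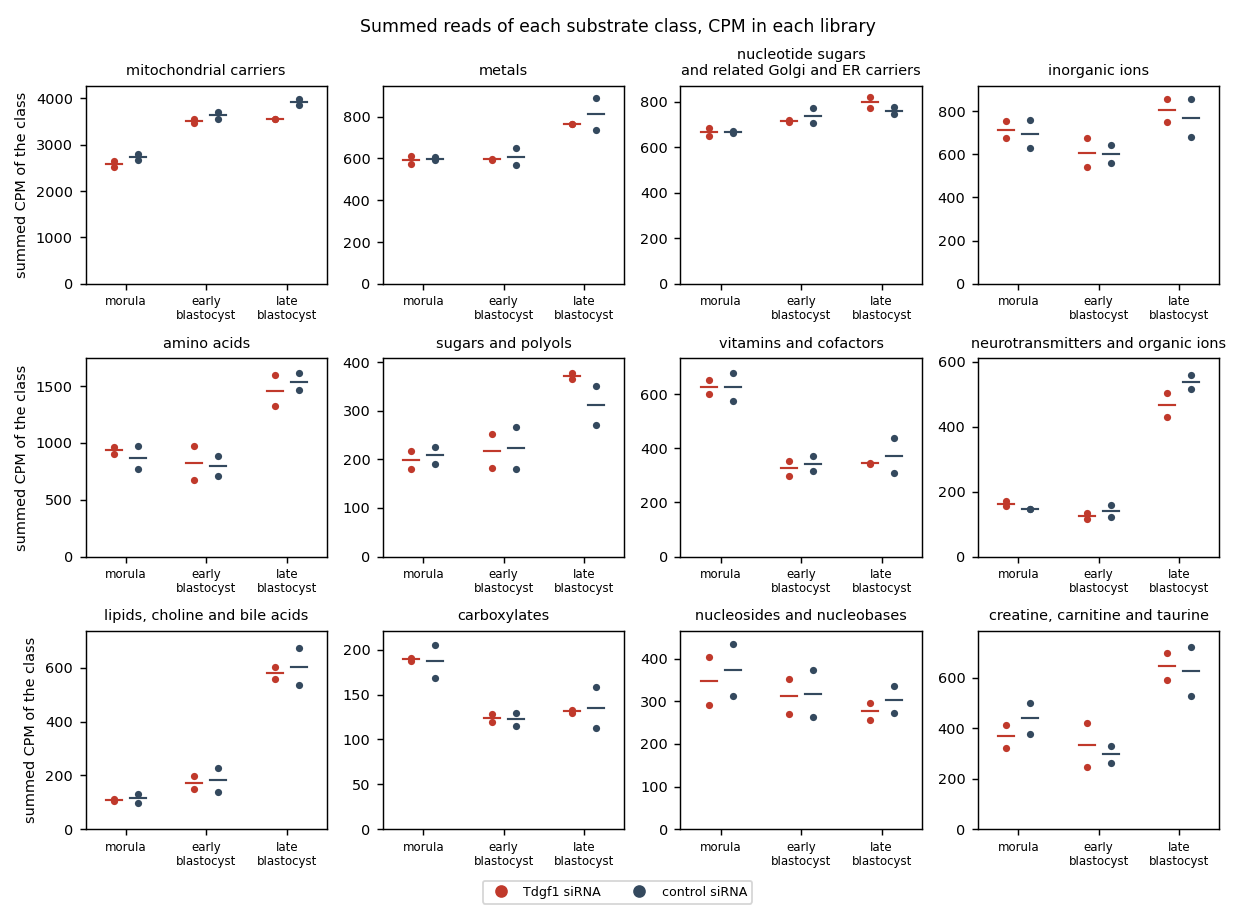
Summed reads of each substrate class, in CPM, for each library (points; bars mark the mean of 2 libraries), with Tdgf1 siRNA left of control siRNA at each stage. Sums of the lipid and choline, organic ion, amino acid, metal, sugar and creatine classes are higher in every late blastocyst library than in any other. Those of the vitamin and carboxylate classes are highest in morulae.

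Between late blastocysts and morulae, 77 members were higher and 33 lower at an adjusted p below 0.05 in limma, a test fitted across all 10751 genes with Benjamini-Hochberg adjustment. Over all genes tested, 36.6% were called higher and 24.3% lower in this comparison, 60.9% in either direction. The members' median log2 change was 0.37, against 0.13 for all genes, on the scale log2(deposited unit + 1), which understates the change of genes with few reads. The share of called members that were higher depended on scaling: quantile normalization, under which the median of all genes was -0.07 and not 0.13, gave 67 higher and 49 lower. Relative to the median of all genes, the members' median stood 0.24 higher. Of the 167 members, 141 reached the minimum level in the mean of every stage and 18 in the means of 2 stages. Of the 8 that reached it in 1 stage, 6 did so in late blastocysts alone, Slc40a1 and Slc50a1 among them, and such genes had to be high there to be members. All 6 were called higher in late blastocysts.

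**Figure D2:**
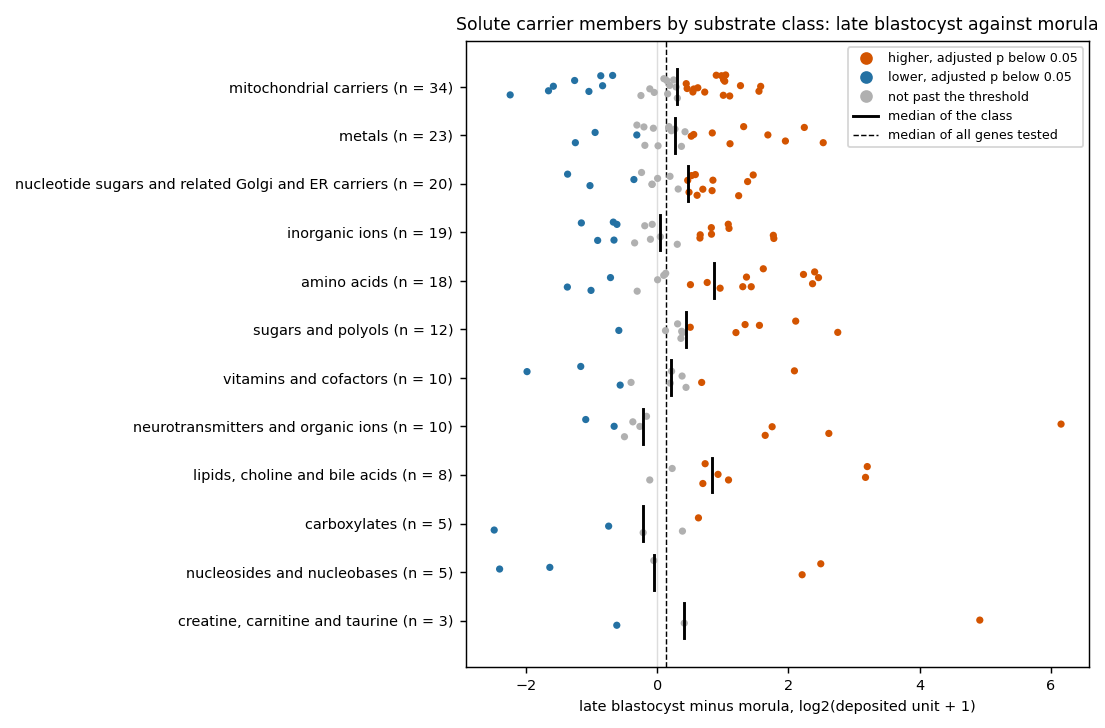
Log2 change between late blastocysts and morulae of each of the 167 members (points), by substrate class, coloured by the limma call; black bars mark class medians and the dashed line the median of all genes tested, 0.13. Amino acid carriers (median 0.86) and lipid, choline and bile acid carriers (median 0.83) lie furthest right, and Slc15a2 at 6.16 and Slc22a5 at 4.92 stand apart on the right.

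The largest change among the members was that of Slc15a2, which encodes PEPT2, a proton-coupled carrier of di- and tripeptides. It read 0.604 and 2.197 CPM with Tdgf1 siRNA and 0.187 and 0.285 CPM with control siRNA in morulae. Early blastocysts had 6.32 and 2.22 CPM with Tdgf1 siRNA and 12.5 and 0.944 CPM with control siRNA, and late blastocysts 243 and 311 CPM with Tdgf1 siRNA and 343 and 338 CPM with control siRNA. Every late blastocyst library was far above every library of the earlier stages, and between early blastocysts and morulae the libraries overlapped. Slc15a2 was higher in late than in early blastocysts (log2 change 5.27, SE 0.31, adjusted p = 1.86e-07) and in late blastocysts than in morulae (log2 change 6.16, SE 0.31, adjusted p = 8.05e-09). In early blastocysts both libraries of number 1 were above both of number 2.

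Slc22a5, which encodes OCTN2, the sodium-coupled carrier of carnitine needed to bring long-chain fatty acids into mitochondria, was next. Its level was 1.64 and 3.75 CPM with Tdgf1 siRNA and 1.68 and 2.76 CPM with control siRNA in morulae, 36.8 and 14.5 CPM with Tdgf1 siRNA and 60.4 and 8.06 CPM with control siRNA in early blastocysts and 120.5 and 198 CPM with Tdgf1 siRNA and 254 and 163 CPM with control siRNA in late blastocysts. No library of one stage overlapped another stage. The change between late blastocysts and morulae (log2 change 4.92, SE 0.42, adjusted p = 4.32e-07) was made of a step from morula to early blastocyst (log2 change 2.18, SE 0.42, adjusted p = 0.00157) and one from early to late blastocyst (log2 change 2.74, SE 0.42, adjusted p = 0.000194). With the early blastocyst libraries of number 2 alone the first step was 1.28, and with those of number 1 alone 3.09. On the same chromosome, 58305 bases away, its relative Slc22a21 was also called higher in late blastocysts than in morulae, by 1.75; it was named after its value was seen.

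Choline carriers followed. Slc44a1, the choline carrier CTL1, which feeds phosphatidylcholine synthesis, had 419 and 352 CPM with Tdgf1 siRNA and 446 and 362 CPM with control siRNA in late blastocysts, against 37.3 and 47.4 CPM with Tdgf1 siRNA and 33.03 and 44.8 CPM with control siRNA in morulae (log2 change 3.18, SE 0.21, adjusted p = 5.65e-08). Slc44a4, a choline-like carrier that takes up thiamine pyrophosphate, had 83.97 and 84.2 CPM with Tdgf1 siRNA and 106 and 80.6 CPM with control siRNA in late blastocysts, against 4.49 and 3.57 CPM with Tdgf1 siRNA and 6.81 and 12.9 CPM with control siRNA in morulae (log2 change 3.20, SE 0.22, adjusted p = 6.27e-08). For both genes all 4 late blastocyst libraries were above all morula libraries, with early blastocysts between. Their relative Slc44a2 was higher in late blastocysts than in morulae by 1.09, and the fatty acid carrier Slc27a4 by 0.73. Of 8 carriers of lipids, choline and bile acids, 6 were higher and 0 lower in late blastocysts than in morulae. As shares, this was 75% and 0%, against 36.6% and 24.3% of all genes. The summed level of the class was 593 ± 60.1 CPM in late blastocysts and 112 ± 14.9 CPM in morulae (SD, n = 4 each), with Slc44a1 taking 61.2% of the class over all libraries.

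**Figure D3:**
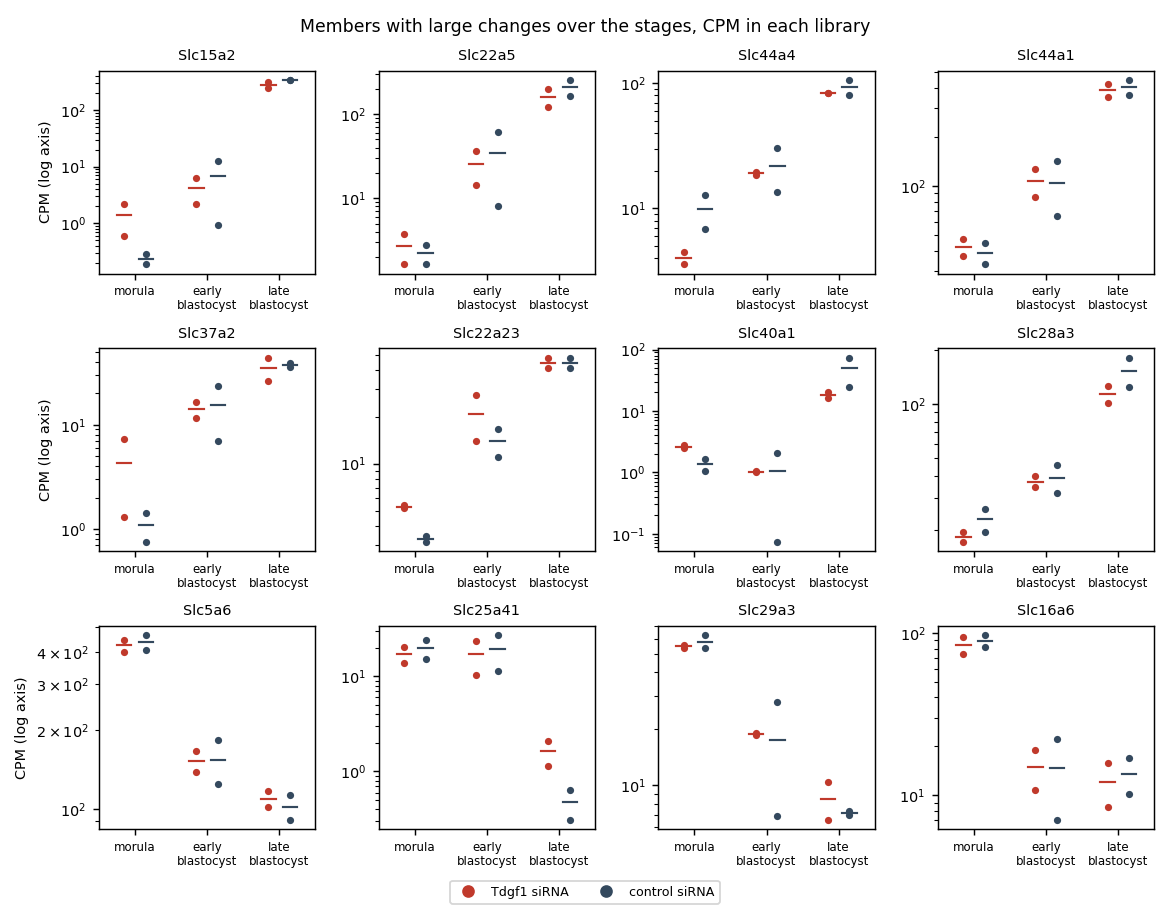
CPM of 12 members in each library on a log axis, morula to late blastocyst, with Tdgf1 siRNA left of control siRNA; bars mark the mean of 2 libraries. The first 8 panels are members higher in late blastocysts and the last 4 (Slc5a6, Slc25a41, Slc29a3 and Slc16a6) members lower; Slc40a1 in late blastocysts has 1 control library at 73.9 CPM above the other 3.

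Promoter windows from RefSeq on GRCm38.p6, 300 bases around the annotated start, were found for 126 members. They were searched on both strands for 5 motifs. The response element of the ATF factors was spelled TGATGNAAN, and the AP-1 motif was spelled TGANTCA. Letters GCCNNNGGC stood for the AP-2 motif, letters GGAATG for the TEAD motif and, last of the motifs, letters AGATAA for the motif of GATA factors. AP-1 and AP-2 letters read the same on both strands. Shares among all member windows and the windows of 7830 genes tested were 2.38% and 2.46% for the ATF element, 6.35% and 5.56% for AP-1, 30.2% and 29.4% for AP-2, 17.5% and 13.9% for TEAD, and 7.94% and 7.46% for GATA. The windows printed here are those that held any motif among the 6 largest rises and 3 largest falls between late blastocysts and morulae, chosen after their values were seen, with motif letters in capitals. Slc15a2 (minus strand, chr16:36784913-36785212) holds a GATA match, Slc22a5 (minus strand, chr11:53891654-53891953) a pair of AP-2 matches, Slc37a2 (minus strand, chr9:37255689-37255988) an AP-1 match, and Slc29a3 (minus strand, chr10:60752733-60753032) a TEAD and an AP-2 match. Each is a run of letters and not a shown binding site.
Slc15a2: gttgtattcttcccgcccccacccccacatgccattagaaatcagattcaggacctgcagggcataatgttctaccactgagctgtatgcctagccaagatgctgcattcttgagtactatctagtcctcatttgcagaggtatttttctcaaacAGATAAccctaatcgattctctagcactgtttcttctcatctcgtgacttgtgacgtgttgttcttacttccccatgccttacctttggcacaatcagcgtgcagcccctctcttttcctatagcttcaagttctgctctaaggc
Slc22a5: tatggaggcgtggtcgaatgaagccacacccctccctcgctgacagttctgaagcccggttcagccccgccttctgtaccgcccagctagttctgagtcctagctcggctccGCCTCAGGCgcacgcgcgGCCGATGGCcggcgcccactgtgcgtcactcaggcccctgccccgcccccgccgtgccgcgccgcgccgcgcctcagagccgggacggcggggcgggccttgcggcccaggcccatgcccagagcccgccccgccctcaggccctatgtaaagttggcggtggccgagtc
Slc37a2: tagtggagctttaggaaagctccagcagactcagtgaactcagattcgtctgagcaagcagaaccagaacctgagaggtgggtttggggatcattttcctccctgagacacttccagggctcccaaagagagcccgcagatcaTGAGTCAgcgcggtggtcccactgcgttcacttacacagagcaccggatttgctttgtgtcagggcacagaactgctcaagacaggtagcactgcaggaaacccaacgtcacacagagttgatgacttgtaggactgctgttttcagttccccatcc
Slc29a3: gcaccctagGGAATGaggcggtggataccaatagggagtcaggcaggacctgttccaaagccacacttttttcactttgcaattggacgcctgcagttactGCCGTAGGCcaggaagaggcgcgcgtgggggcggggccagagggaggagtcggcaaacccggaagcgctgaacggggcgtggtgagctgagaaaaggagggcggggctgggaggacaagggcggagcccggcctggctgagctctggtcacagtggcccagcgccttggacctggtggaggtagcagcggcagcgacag

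Among amino acid carriers, 11 of 18 were higher and 3 lower in late blastocysts than in morulae, with a class median of 0.86. These were 61.1% and 16.7%, against 36.6% and 24.3% of all genes. In late against early blastocysts, 10 of 18 were higher and 1 lower (55.6% and 5.56%, all genes 27.0% and 17.7%). Slc38a4, a sodium-coupled neutral amino acid carrier known from the placenta, had 166 and 162 CPM with Tdgf1 siRNA and 146 and 160.1 CPM with control siRNA in late blastocysts, against 20.6 and 33.5 CPM with Tdgf1 siRNA and 31.7 and 20.1 CPM with control siRNA in morulae (log2 change 2.46, SE 0.18, adjusted p = 1.23e-07). Its early blastocyst libraries, at 44.5 to 78.5 CPM, lay between the other stages without overlap. Slc38a2, the carrier SNAT2 that rises in amino acid shortage in many cells, did not pass between early blastocysts and morulae (-0.18). It was higher at the late stage, at 47.7 and 85.9 CPM with Tdgf1 siRNA and 95.6 and 104 CPM with control siRNA in late blastocysts against 9.52 and 12.02 CPM with Tdgf1 siRNA and 10 and 10.3 CPM with control siRNA in early blastocysts (log2 change 2.58, SE 0.23, adjusted p = 3.09e-06). The late blastocyst library of Tdgf1 siRNA replicate 1 was the lowest of that stage, yet above all libraries of the other stages.

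Slc38a1 lies 44479 bases from Slc38a2 and was also higher in late blastocysts than in morulae, by 1.36; it was named after its value was seen. Slc7a7, which exchanges cationic for neutral amino acids as a partner of the heavy chain Slc3a2, was at 43.03 to 75.8 CPM in late blastocysts, against 3.98 to 9.26 CPM in early blastocysts (log2 change 2.36, SE 0.21, adjusted p = 3.70e-06). Its exons share 232 bases with Oxa1l on the opposite strand, whose level was also higher in late than in early blastocysts, by 0.41. Strand is not stated, so reads of the shared bases cannot be told apart. Slc3a2 was higher in late blastocysts than in morulae by 0.96, with 179 to 279.8 CPM in late blastocysts and 103 to 146 CPM in morulae. Slc1a3, a glutamate and aspartate carrier, was at 18.2 to 26.8 CPM in late blastocysts and 0.665 to 2.07 CPM in morulae (log2 change 2.37, SE 0.18, adjusted p = 1.49e-07). The related glutamate carrier Slc1a1 went the other way, at 123 to 161 CPM in late blastocysts and 193 to 261 CPM in morulae (log2 change -0.71, SE 0.15, adjusted p = 0.00102). Slc1a1 exons share 1524 bases with 4430402I18Rik on the opposite strand, at 71.2 CPM over all libraries. The change of that gene (-0.52) did not pass, and reads of the shared bases cannot be told apart. Slc38a6, the amino acid class's most read member, spread widely, with 71.5 to 336 CPM in early blastocysts, and was not called in any stage comparison.

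A list of amino acid carriers known to respond to the stress factor ATF4 (Slc7a11, Slc7a5, Slc3a2, Slc7a1, Slc7a3, Slc1a4, Slc1a5, Slc38a2 and Slc6a9) had 5 of its 9 genes above the minimum level. Of these 5, Slc38a2, Slc7a1 and Slc3a2 were higher in late blastocysts than in morulae and none was lower. Slc7a5 (log2 change -0.31) and Slc1a5 (0.10) did not pass the test. Over all genes, 36.6% were called higher and 24.3% lower, and these 5 are also counted in the amino acid class above. In early blastocysts against morulae, where 19.7% of all genes were called higher and 14.0% lower, none of the 5 was higher. Slc7a5 was lower (log2 change -0.60, adjusted p = 0.0154 in limma). That call was lost without early blastocyst Tdgf1 siRNA replicate 2 or morula Tdgf1 siRNA replicate 1. The other 4 peaked at 14.6 CPM, in Slc7a3 in a late blastocyst library. Asns, asparagine synthetase and a known ATF4 target that is no carrier, had 64.2 and 83.5 CPM with Tdgf1 siRNA and 149 and 166 CPM with control siRNA in late blastocysts. Its siRNA difference there (-1.07) did not pass (adjusted p = 0.99995 in limma), but did with same-numbered libraries as a block (adjusted p = 0.0479 in limma). Same-numbered late blastocyst libraries of the 2 arms correlated at only 0.101 over genes, so the ground for this block is weak there. The same 5 carriers gave a median siRNA difference of -0.31 at that stage (range -0.61 to 0.02), none past the threshold, against 0.02 for all genes. The list's summed level there was 278 and 428 CPM with Tdgf1 siRNA and 443 and 449 CPM with control siRNA. Most of it was Slc3a2, at 179 and 263 CPM with Tdgf1 siRNA and 271 and 279.8 CPM with control siRNA.

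Of 12 sugar and polyol carriers, 6 were higher and 1 lower in late blastocysts than in morulae. That is 50% and 8.33%, against 36.6% and 24.3% of all genes. In late against early blastocysts, 7 were higher and 0 lower (58.3% and 0%, all genes 27.0% and 17.7%). Slc37a2, which exchanges glucose 6-phosphate for phosphate in the ER, had 1.29 and 7.32 CPM with Tdgf1 siRNA and 0.747 and 1.43 CPM with control siRNA in morulae, 16.7 and 11.7 CPM with Tdgf1 siRNA and 23.6 and 7.04 CPM with control siRNA in early blastocysts and 43.99 and 26.5 CPM with Tdgf1 siRNA and 38.96 and 35.5 CPM with control siRNA in late blastocysts. A single morula library of Tdgf1 siRNA was above 1 early blastocyst control library, and otherwise the stages kept apart (log2 change 2.75, SE 0.30, adjusted p = 3.90e-06 for late blastocyst minus morula). Slc50a1, the mammalian SWEET sugar carrier, was at 10.5 to 17.8 CPM in late blastocysts and 0.183 to 1.33 CPM in morulae (log2 change 2.11, SE 0.19, adjusted p = 8.15e-07), where its 4 libraries were at or under 1.33 CPM. Slc45a4, the most read member of the class, was higher by 0.50 over both arms but by 0.10 in control libraries alone, with an adjusted p of 0.733 there in limma. Its call over both arms was lost without late blastocyst Tdgf1 siRNA replicate 1 (adjusted p = 0.0661 in limma), late blastocyst control siRNA replicate 1 (0.0904), morula Tdgf1 siRNA replicate 1 (0.0618) or morula control siRNA replicate 1 (0.0522). Slc5a11, an inositol carrier, and Slc37a3 did not pass the test in any stage comparison; in morulae both libraries of number 2 held more Slc5a11 than both of number 1.

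Metal carriers moved both ways, 9 higher and 3 lower of 23 between late blastocysts and morulae. Their shares were 39.13% and 13.04%, against 36.6% and 24.3% of all genes. Slc40a1, ferroportin, the iron exporter, had 20.3 and 16.1 CPM with Tdgf1 siRNA and 73.9 and 24.99 CPM with control siRNA in late blastocysts, against 1.07 and 0.995 CPM with Tdgf1 siRNA and 2.07 and 0.0726 CPM with control siRNA in early blastocysts (log2 change 2.80, SE 0.26, adjusted p = 4.53e-06). All 4 late libraries were above all others, and control replicate 1 stood well above the remaining 3. Slc39a2, the zinc importer ZIP2, was at 33.4 to 83.1 CPM in late blastocysts and 6.04 to 9.798 CPM in morulae (log2 change 2.24, SE 0.27, adjusted p = 1.05e-05); it shares 151 bases of exon with Mettl17 on the same strand, which was more read (33.4 CPM, against 23.2 CPM for Slc39a2 over all libraries) and also higher in late blastocysts than in morulae, by 0.86. The copper importer Slc31a1 was higher by 0.84 in late blastocysts than in morulae, and Slc31a2, which lies 62316 bases from it, by 1.95 (named after its value was seen). Slc30a4, a zinc exporter, was higher by 0.56, while the zinc importer Slc39a4 (-0.06) did not pass.

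Mitochondrial carriers formed the largest class, with 16 higher and 8 lower of 34 between late blastocysts and morulae. Their shares were 47.1% and 23.5%, against 36.6% and 24.3% of all genes. The ADP/ATP exchangers Slc25a4 and Slc25a5 and the phosphate carrier Slc25a3, which together bring ADP and phosphate to ATP synthase, were all higher. Slc25a4 had 524 and 477 CPM with Tdgf1 siRNA and 568 and 415 CPM with control siRNA in early blastocysts, against 194 and 202 CPM with Tdgf1 siRNA and 219.8 and 197 CPM with control siRNA in morulae (log2 change 1.26, SE 0.12, adjusted p = 1.61e-05). All early blastocyst libraries were above all morula libraries, and late blastocysts (log2 change 0.00) did not pass against early ones. Slc25a5 was at 996 to 1213 CPM in early blastocysts and 678 to 793 CPM in morulae (log2 change 0.52, SE 0.10, adjusted p = 0.00143). Slc25a3 was higher in late blastocysts than in morulae by 0.56.

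The citrate carrier Slc25a1, which exports citrate for lipid synthesis, was higher in early blastocysts than in morulae, at 22.2 to 39.1 CPM in early blastocysts and 7.03 to 12.4 CPM in morulae (log2 change 1.52, SE 0.21, adjusted p = 0.000211). Slc25a13, the aspartate and glutamate exchanger citrin of the malate-aspartate shuttle, was higher as well, at 31.95 to 54.2 CPM in early blastocysts and 10.01 to 24.8 CPM in morulae (log2 change 1.31, SE 0.23, adjusted p = 0.000923). For both genes the early blastocyst libraries were all above the morula libraries. Between late and early blastocysts the changes, 0.06 for Slc25a1 and 0.25 for Slc25a13, did not pass the test. Slc25a41, an ATP-Mg/phosphate carrier by homology, had 2.09 and 1.15 CPM with Tdgf1 siRNA and 0.642 and 0.309 CPM with control siRNA in late blastocysts, against 10.4 and 23.7 CPM with Tdgf1 siRNA and 11.5 and 26.9 CPM with control siRNA in early blastocysts (log2 change -2.16, SE 0.26, adjusted p = 3.14e-05). The mitochondrial glutamate carrier Slc25a22 was at 3.702 to 12.6 CPM in late and 17.4 to 21.3 CPM in early blastocysts (log2 change -1.14, SE 0.21, adjusted p = 0.000905). Slc25a44, a carrier of branched-chain amino acids, was at 26.3 to 45.7 CPM in late blastocysts and 103 to 125 CPM in morulae (log2 change -1.59, SE 0.12, adjusted p = 1.78e-07).

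Vitamin and cofactor carriers gave 2 higher and 3 lower of 10 between late blastocysts and morulae (20% and 30%, all genes 36.6% and 24.3%). Slc5a6, the carrier SMVT of biotin, pantothenate and lipoate, held 52.2% of the class's reads. It read 401 and 446 CPM with Tdgf1 siRNA and 407 and 463 CPM with control siRNA in morulae, 138 and 167 CPM with Tdgf1 siRNA and 124 and 183 CPM with control siRNA in early blastocysts and 117 and 102 CPM with Tdgf1 siRNA and 113 and 90.7 CPM with control siRNA in late blastocysts. All morula libraries were above all early blastocyst libraries, which were above all late ones. The fall was larger in the first interval (log2 change -1.48, SE 0.14, adjusted p = 1.61e-05) than in the second (log2 change -0.51, SE 0.14, adjusted p = 0.00779), a difference that was not tested. With the early blastocyst libraries of number 1 alone, the second fall did not pass (adjusted p = 0.0939 in limma). Slc5a6 exons overlap those of Atraid on the opposite strand, whose level did not pass between early blastocysts and morulae (-0.22). Slc48a1, the heme carrier HRG1, was at 1.31 to 5.24 CPM in late and 11.6 to 15.98 CPM in early blastocysts (log2 change -1.32, SE 0.19, adjusted p = 0.000108). Slc52a3, a riboflavin carrier, was at 20.8 to 39.1 CPM in late blastocysts and 3.55 to 6.13 CPM in morulae (log2 change 2.09, SE 0.20, adjusted p = 9.93e-07). Slc33a1, which brings acetyl-CoA into the ER, was higher by 0.68 in late blastocysts than in morulae. The folate carrier Slc46a1 (0.38) did not pass.

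The 5 carriers of nucleosides and nucleobases split. Slc28a3, which concentrates nucleosides with sodium, had 102 and 127 CPM with Tdgf1 siRNA and 182 and 125 CPM with control siRNA in late blastocysts, against 19.4 and 17.02 CPM with Tdgf1 siRNA and 19.4 and 26.2 CPM with control siRNA in morulae (log2 change 2.49, SE 0.16, adjusted p = 5.54e-08). Slc29a1, the equilibrative plasma membrane carrier ENT1, was at 36.7 to 79.1 CPM in late blastocysts and 6.84 to 12.1 CPM in morulae (log2 change 2.21, SE 0.21, adjusted p = 9.20e-07). Both stood higher in every late blastocyst library than in any morula library. Exons of Slc29a1 overlap those of Gm17080 on the opposite strand, which was also higher in late blastocysts than in morulae, by 1.87. In contrast, Slc29a3, the lysosomal and mitochondrial relative ENT3, had 6.55 and 10.4 CPM with Tdgf1 siRNA and 7.33 and 6.94 CPM with control siRNA in late blastocysts, against 53.7 and 55.9 CPM with Tdgf1 siRNA and 53.5 and 62.6 CPM with control siRNA in morulae (log2 change -2.41, SE 0.26, adjusted p = 3.91e-06). Slc43a3, a nucleobase carrier, was at 73.5 to 106 CPM in late blastocysts and 199.8 to 332 CPM in morulae (log2 change -1.64, SE 0.20, adjusted p = 1.02e-05). No late blastocyst library of either gene overlapped a morula library. The class sum was 290 ± 35.1 CPM in late blastocysts and 360 ± 69.6 CPM in morulae (SD, n = 4 each).

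Carboxylate carriers were few, 5 in all, with 1 higher and 2 lower between late blastocysts and morulae. Over all genes, 36.6% were higher and 24.3% lower. Slc16a6, a monocarboxylate family member (MCT7) linked to ketone bodies, had 73.9 and 94.8 CPM with Tdgf1 siRNA and 82.2 and 96.5 CPM with control siRNA in morulae, 10.8 and 18.9 CPM with Tdgf1 siRNA and 7.03 and 22.3 CPM with control siRNA in early blastocysts and 15.8 and 8.47 CPM with Tdgf1 siRNA and 17.1 and 10.1 CPM with control siRNA in late blastocysts. Morula libraries were all above the rest, and both blastocyst stages overlapped. Its level was lower in early blastocysts than in morulae (log2 change -2.38, SE 0.27, adjusted p = 4.93e-05), the largest fall of the members in that interval. Its exons share 1052 bases with Amz2 on the opposite strand, whose level was higher in late blastocysts than in morulae by 0.38. Slc16a1, the lactate and pyruvate carrier MCT1, was at 59.3 to 76.8 CPM in early blastocysts and 30.8 to 53.7 CPM in morulae (log2 change 0.62, SE 0.16, adjusted p = 0.00913), and the late blastocyst libraries, at 54.5 to 81.7 CPM, overlapped the early ones. With the early blastocyst libraries of number 2 alone its call was lost (adjusted p = 0.0804 in limma). Slc13a2, a citrate and succinate carrier, was lower in early blastocysts than in morulae (-0.86) and higher in late than in early blastocysts (0.65), the second call being lost without late blastocyst control siRNA replicate 1 (adjusted p = 0.0553 in limma).

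Among 10 carriers of neurotransmitters, peptides and organic ions, 4 were higher and 2 lower in late blastocysts than in morulae. As shares, this was 40% and 20%, against 36.6% and 24.3% of all genes. The class sum, 502 ± 54.2 CPM in late blastocysts and 155 ± 11.3 CPM in morulae (SD, n = 4 each), was made up mostly of Slc15a2 in late blastocysts; this gene averaged 309 ± 45.9 CPM in late blastocysts and 0.818 ± 0.936 CPM in morulae. Slc22a23, an organic ion carrier family member, was at 41.03 to 47.8 CPM in late blastocysts and 3.14 to 5.4 CPM in morulae (log2 change 2.62, SE 0.19, adjusted p = 1.45e-07). Slc6a13, the GABA and taurine carrier GAT2, was at 23.3 to 54.7 CPM in early blastocysts and 9.61 to 13.6 CPM in morulae (log2 change 1.24, SE 0.19, adjusted p = 0.000388). Slco4c1, an organic anion carrier, was lower, at 7.28 to 18.4 CPM in early blastocysts and 30.4 to 50.9 CPM in morulae (log2 change -1.62, SE 0.22, adjusted p = 0.000162). Slc17a5, the lysosomal sialic acid exporter, was lower in early blastocysts than in morulae (-0.59), a call lost without early blastocyst Tdgf1 siRNA replicate 1 (adjusted p = 0.0675 in limma), morula Tdgf1 siRNA replicate 1 (0.0682) or morula control siRNA replicate 1 (0.0572).

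The creatine carrier Slc6a8 and the taurine carrier Slc6a6 make up their class with Slc22a5. Slc6a8 was higher in late than in early blastocysts, at 304 to 411 CPM in late and 176 to 309 CPM in early blastocysts (log2 change 0.82, SE 0.18, adjusted p = 0.00242), with a single early library above the lowest late one. Slc6a6 was lower, at 63.2 to 90.2 CPM in late blastocysts and 98.9 to 126 CPM in morulae (log2 change -0.62, SE 0.14, adjusted p = 0.00139).

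Inorganic ion carriers gave 8 higher and 5 lower of 19 between late blastocysts and morulae (42.1% and 26.3%, all genes 36.6% and 24.3%). Slc20a1, the phosphate carrier PiT1, was at 194 to 273 CPM in late blastocysts and 94.7 to 119 CPM in morulae (log2 change 1.09, SE 0.16, adjusted p = 4.74e-05). The potassium-chloride exporters Slc12a4 and Slc12a7, which lower cell volume, were both lower. Slc12a7 had 45.5 and 43.2 CPM with Tdgf1 siRNA and 33.9 and 25.99 CPM with control siRNA in late blastocysts, against 84.6 and 80.6 CPM with Tdgf1 siRNA and 79.97 and 98.6 CPM with control siRNA in morulae (log2 change -1.16, SE 0.14, adjusted p = 7.47e-06). Slc12a4 was at 9.19 to 13.05 CPM in early blastocysts and 27.6 to 31.3 CPM in morulae (log2 change -1.16, SE 0.16, adjusted p = 0.00018), and higher in late than in early blastocysts by 0.49. That second call was lost without early blastocyst Tdgf1 siRNA replicate 2, early blastocyst control siRNA replicate 1 or replicate 1 of either arm in late blastocysts (adjusted p = 0.0773 to 0.0922 in limma). Slc24a5, a sodium-calcium exchanger of intracellular membranes, was lower in early blastocysts than in morulae (-0.45). That call was lost without any single early blastocyst library or without replicate 2 of either arm in morulae (adjusted p = 0.0521 to 0.109 in limma). Slc24a5 exons share 714 bases with Myef2 on the opposite strand, and reads of the shared bases cannot be told apart.

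Of 20 carriers of nucleotide sugars and related Golgi and ER substrates, 11 were higher and 3 lower between late blastocysts and morulae. The shares were 55% and 15%, against 36.6% and 24.3% of all genes, and the class median was 0.47. Slc35b1, which brings ATP into the ER, was at 172 to 187 CPM in late blastocysts and 87.6 to 112 CPM in morulae (log2 change 0.85, SE 0.13, adjusted p = 8.44e-05). Slc35a4 was higher in early blastocysts than in morulae by 0.68. Slc35e4, with no assigned substrate, was at 11.1 to 25.1 CPM in late and 31.3 to 52.3 CPM in early blastocysts (log2 change -1.32, SE 0.19, adjusted p = 0.000117). Slc35g1 was lower in late blastocysts than in morulae by -0.36 (adjusted p = 0.0229), a call lost without replicate 2 of either arm in late blastocysts or replicate 1 of either arm in morulae (adjusted p = 0.0598 to 0.0965 in limma).

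Between early blastocysts and morulae, 34 members were higher and 28 lower, where 19.7% of all genes were called higher and 14.0% lower (33.7% in either direction), and the members' median was -0.03 against 0.05 for all genes. Quantile normalization gave 30 higher and 38 lower. The 5 largest rises named above were those of Slc22a5, Slc37a2, Slc25a1, Slc22a23 and Slc25a13 and the 5 largest falls those of Slc16a6, Slco4c1, Slc29a3, Slc5a6 and Slc12a4. All 10 kept their direction with the early blastocyst libraries of number 1 alone and with those of number 2 alone. They were picked as the largest changes in these same libraries, so this does not cover other members. Slc39a14 and Slc1a3, among others, lost their call with number 2 alone, and Slc7a5 and Slc25a38, among others, with number 1 alone. Between late and early blastocysts, 66 members were higher and 15 lower, where 27.0% of all genes were called higher and 17.7% lower (44.7% in either direction). The members' median was 0.31 and that of all genes 0.09; quantile normalization gave 54 higher and 23 lower. Both comparisons use the same early blastocyst libraries. Members whose 4 libraries of one stage all lay on 1 side of the 4 of the other numbered 65 of 167 between early blastocysts and morulae (38.9%, against 33.7% of all genes), 75 between late and early blastocysts (44.9%, against 43.6%) and 104 between late blastocysts and morulae (62.3%, against 58.9%).

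Proteins that work beside carriers moved over the same stages. Of 30 such genes, 28 were in the table under these names and 26 were tested. Between late blastocysts and morulae, 13 were higher and 7 lower, where 36.6% of all genes were higher and 24.3% lower. Atp1b1, the beta subunit of the sodium pump that drives blastocoel formation, was at 208 to 279.7 CPM in late blastocysts and 22.02 to 42.7 CPM in morulae (log2 change 2.78, SE 0.20, adjusted p = 1.11e-07). In morulae it had 41.6 and 42.7 CPM with Tdgf1 siRNA and 22.02 and 24.7 CPM with control siRNA, a difference (0.77) that passed with same-numbered libraries as a block (adjusted p = 0.0446 in limma) and not without it (0.99995). Bsg, the chaperone that brings monocarboxylate carriers to the surface, was higher by 1.30, and Ank, an exporter of citrate and pyrophosphate, by 3.68. In contrast, both subunits of the mitochondrial pyruvate carrier were lower, Mpc1 by -1.44 and Mpc2 by -1.24. Tfrc, the transferrin receptor that imports iron, was at 58 to 71.6 CPM in late blastocysts and 591 to 1008 CPM in morulae (log2 change -3.47, SE 0.26, adjusted p = 1.57e-07), while ferroportin Slc40a1 was higher in late blastocysts as given above.

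No member passed the threshold between Tdgf1 siRNA and control embryos at any stage or over the average of the stages, and in none did the siRNA difference vary between stages past the threshold. In the same limma fit, without a block, 0% of all 10751 genes were called. Tdgf1, the target of the siRNA, did not pass at any stage or over the average either. A lack of calls in this fit therefore does not show that members were unchanged. At an unadjusted p below 0.05 in limma there were 4 of 167 members in morulae (2.40%, against 1.80% of all genes), 4 in early blastocysts (2.40% against 1.04%), 3 in late blastocysts (1.80% against 2.06%), 2 over the average (1.198% against 2.49%) and 4 for the variation between stages (2.40% against 0.902%). On the reads recovered from the table, edgeR called 0 members, with 6, 5 and 6 unadjusted at the 3 stages in order, and DESeq2 called 0, with 7, 6 and 4. With same-numbered libraries as a block, limma called 0 members at each stage, and 5 genes in morulae, 5 in early blastocysts and 3 in late blastocysts. Unadjusted, the block gave 11 members in morulae (6.59%, against 6.17% of all genes), 12 in early blastocysts (7.19% against 4.57%) and 16 in late blastocysts (9.58% against 6.48%). Counting members whose 2 Tdgf1 siRNA libraries did not overlap the 2 control libraries gave 52 in morulae (31.1% of members, against 27.5% of all genes), 42 in early blastocysts (25.1% against 19.4%) and 60 in late blastocysts (35.9% against 31.9%).

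**Figure D4:**
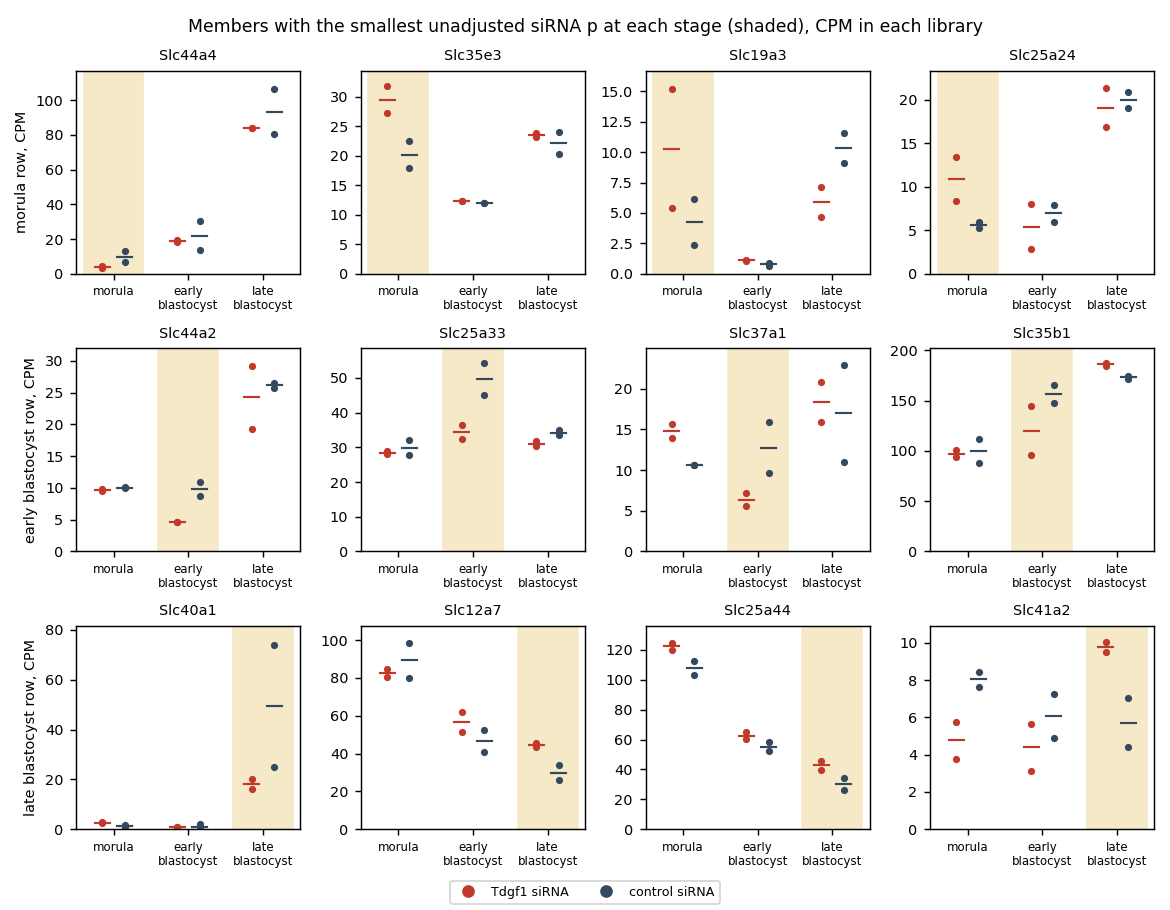
CPM of the 4 members with the smallest unadjusted siRNA p at each stage, 1 row a stage (shaded), in each library, with Tdgf1 siRNA left of control siRNA; bars mark the mean of 2 libraries. Slc40a1 in late blastocysts is lower in both Tdgf1 siRNA libraries, 20.3 and 16.1 CPM, than in both control libraries, 73.9 and 24.99 CPM; none of the 12 differences passed the adjusted threshold.

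The member with the largest siRNA difference in late blastocysts was Slc40a1 (log2 difference -1.11, SE 0.37, unadjusted p = 0.00952 and adjusted p = 0.99995 in limma, and adjusted p = 0.311 with the block). Its Tdgf1 siRNA libraries, at 20.3 and 16.1 CPM, were below its control libraries, at 73.9 and 24.99 CPM. In morulae the order of the arms was the other way, with 2.502 and 2.75 CPM with Tdgf1 siRNA and 1.68 and 1.05 CPM with control siRNA. Slc12a7 had 45.5 and 43.2 CPM with Tdgf1 siRNA and 33.9 and 25.99 CPM with control siRNA in late blastocysts (log2 difference 0.53), and Slc25a44 39.6 and 45.7 CPM with Tdgf1 siRNA and 34.5 and 26.3 CPM with control siRNA (0.45); both were above control in each Tdgf1 siRNA library. Slc41a2, a magnesium carrier, differed by 0.54.

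At early blastocyst the choline carrier Slc44a2 had 4.68 and 4.67 CPM with Tdgf1 siRNA and 11 and 8.79 CPM with control siRNA (log2 difference -0.70). Slc25a33, a pyrimidine nucleotide carrier of mitochondria, had 32.4 and 36.4 CPM with Tdgf1 siRNA and 54.4 and 45.02 CPM with control siRNA (-0.48), Slc37a1 differed by -0.69 and Slc35b1 by -0.40. In all 4 the Tdgf1 siRNA libraries were both below the control libraries. At morula, Slc44a4 had 4.49 and 3.57 CPM with Tdgf1 siRNA and 6.81 and 12.9 CPM with control siRNA (log2 difference -0.79), and the differences of Slc35e3 (0.48), the thiamine carrier Slc19a3 (0.77) and the ATP-Mg/phosphate carrier Slc25a24 (0.63) were positive. Over the average of the stages the smallest p-values were those of Slc25a44 (0.27), Slc44a2 (-0.29), Slc25a5 (-0.17) and Slc25a33 (-0.22), the first with an unadjusted p of 0.0182 in limma. None of these passed after adjustment.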

How the data were processed

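RNA-seq libraries of whole embryos were made, per the labels' protocols, with the SMARTer Ultra Low Input and NEBNext Ultra DNA kits; neither is stated to keep strand. The submitters' processing notes name HISAT2 2.1.0, Cufflinks, HTSeq, edgeR and the build mm10 without saying what each did. The deposited table has 43472 genes and, per the file headers, its unit is RPKM, but every value was a whole multiple of 1 step per library for genes of any length (100% whole within 0.01 reads). The values that the authors deposited are therefore CPM divided by a constant of 3.582 CPM per deposited unit, and levels are given as CPM after multiplying by it, with no correction for length. This gave back 10524640 to 13770264 reads per library. The planned test had assumed RPKM and was kept, since it suits CPM.

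Stage and siRNA differences were tested with limma 3.58.1 in R 4.3.3 (lmFit, eBayes with trend) on log2(deposited unit + 1) over 10751 genes with a mean of at least 1 unit, with 6 group means and Benjamini-Hochberg adjustment within a comparison over all genes. A stage comparison averages both siRNA arms. Alternatives were edgeR 4.0.16 (quasi-likelihood test) and DESeq2 1.42.0 on the recovered reads, another pseudocount, other filters, quantile normalization, control libraries alone, each library left out and same-numbered libraries as a block. Deviations of same-numbered libraries of the 2 arms correlated at 0.458, 0.593 and 0.101 at the 3 stages in order, and on this ground alone, since no shared litter or day is stated, same-numbered libraries were treated as pairs of a stage; the last value barely exceeds 0.1. Libraries of a group differed by more than sampling noise (chi-square per gene 17.0 to 41.1) and none were merged. The fits were tested on simulated data.

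Members were sorted into 12 substrate classes by family or, where a family such as Slc6 or Slc22 was split, by gene. Named are the 3 members of highest mean level in each class, the 20 largest called changes between late blastocysts and morulae, the 5 largest each way in the other stage comparisons, and the 4 smallest p-values of each siRNA comparison, 63 members in all. The members, classes and gene lists were chosen with earlier results of these data known. All 167 members matched GENCODE release M21; exons of 55 overlap another gene's, and in 15 of these that gene had at least 50% of the member's level. Tables and plots were made with Python 3.11.15, pandas 2.3.3, numpy 2.4.6 and matplotlib 3.10.9.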

Additional observations from a re-analysis of the deposited data

How the results depend on the processing

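Leaving out each library in turn kept the counts of called members between 28 and 39 higher and 23 and 28 lower for early blastocyst minus morula, between 55 and 68 higher and 12 and 17 lower for late minus early blastocyst, and between 71 and 79 higher and 29 and 33 lower for late blastocyst minus morula; all siRNA counts stayed between 0 and 0. Single calls were less stable, with 17, 17 and 13 members of the 3 comparisons in order losing their call without at least 1 library. In control libraries alone, early blastocyst minus morula gave 20 higher and 13 lower, and with the early blastocyst libraries of number 2 alone, an alternative chosen after seeing the data, 22 higher. A minimum mean of 5 deposited units left 95 members to test and gave 36 higher and 8 lower for late minus early blastocyst and 48 higher and 21 lower for late blastocyst minus morula. Quantile normalization gave 23 lower for late minus early blastocyst, and the cause was not tested. Shares of all genes called in the stage comparisons are not given for these alternatives. For late blastocyst minus morula the share of called members that were higher was 70.0% in limma, 57.8% after quantile normalization, 66.7% in edgeR and 66.4% in DESeq2. The replicate block called 0 members in each siRNA comparison, as did edgeR with the same pairs, chosen after seeing the data, and changed no call of a member; over all genes the block gave 5, 5 and 3 calls at the 3 stages in order in limma and 1, 5 and 0 in edgeR, and DESeq2 without it gave 1 in late blastocysts. Uncalled late blastocyst minus morula changes reversed for Slc38a6 (-0.031 in DESeq2, -0.018 in edgeR, and -0.00822 to 0.26 with 1 library left out) and for Slc39a4 (-0.28 to 0.16 with 1 library left out, 0.08 and 0.13 among the positive values). Among named members, Slc35g1 and Slc45a4 lost that call with no filter (adjusted p = 0.0586 and 0.0755 in limma). Count tests gave larger changes for members with few reads, such as -4.53 for Slc25a41, 4.68 for Slc50a1 and 3.83 for Slc40a1 between late blastocysts and morulae in edgeR, against -2.25, 2.11 and 2.53 in limma. With 2 libraries a group, depth limits low members most: 41 members averaged below 10 CPM.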

Other observations

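The table held 11 pairs of members that lie within 200 kb of each other on a chromosome, and their changes between late blastocysts and morulae can be set side by side. Slc35b2, a carrier of the sulfate donor of the Golgi, had a log2 change of 0.00 and did not pass the test. Its neighbour Slc29a1, 17529 bases away, was higher by 2.21, with the exon overlap given above. Slc25a15, a mitochondrial ornithine carrier, had 0.10 and did not pass, while the phosphate carrier Slc20a2 next to it was higher by 1.78. Slc20a2 exons overlap those of Smim19 on the opposite strand, which was more read (17.3 against 9.30 CPM over all libraries) and also higher, by 0.55. On the X chromosome Slc25a43 was higher by 0.90 and Slc25a5 by 0.44. Slc39a4 and Slc52a2, a riboflavin carrier, had -0.06 and 0.22 and neither passed. Members of a pair that were not already named were chosen here by position.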
